A study of Mus musculus with 661 samples.

Results

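Hox genes encode homeodomain transcription factors, and this report follows all 39 of them through single stromal cells of mouse bone. The set was chosen by symbol alone, as the letter of 1 of 4 clusters followed by a number, and it holds 39 of the 45771 nuclear genes of the count table. Antisense and other noncoding RNAs of the clusters were kept apart. On the GRCm38 build 11 genes form the HoxA cluster at chr6:52155590-52260880, 10 form HoxB at chr11:96194316-96368256, 9 form HoxC at chr15:102921103-103036852 and 9 form HoxD at chr2:74668310-74765142. Genes of the same number in different clusters descend from one ancestral gene and form a paralog group, and the groups number up to 13.

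During development the genes of a cluster switch on in the order in which they lie on the chromosome, so that low-numbered genes act toward the head and high-numbered genes toward the tail. In the limbs the high-numbered genes of HoxA and HoxD pattern the upper, middle and end segments in turn, and HoxC genes are used in the hindlimb. Skeletal stem cells and fibroblasts of the adult keep part of this code, which differs with the place in the body where their ancestors arose.

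The study sorted single stromal cells from the bones of wild-type C57BL/6 mice of both sexes at about 2 months (young) and about 24 months (old) and sequenced each by a plate-based full-length method. Endosteal cells came from crushed leg, arm and pelvic bones, while central marrow cells came from flushed femurs. Site within the bone and bone of origin therefore cannot be told apart in any comparison of endosteal with marrow cells. All cells were sorted as negative for the blood markers Ter119 and CD45, and no treatment or transgene separated the groups. The labels name no mouse and no bone for a cell, so each age of a population counted as 1 sample and no test between ages or populations was possible.

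Among endosteal cells, MSC-S were mesenchymal cells with Sca-1 and CD51, mOPr were osteoprogenitors with PDGFRa and without LepR, and OPr were osteoprogenitors without either. From central marrow came MSC-L, mesenchymal cells with both PDGFRa and LepR. The labels AEC and SEC stand here for endothelial cells of the endosteum and of central marrow. The methods define arteriolar cells (AEC) by high Sca-1 and low CD105, and sinusoidal cells (SEC) by low Sca-1 and high CD105. They list the sequenced cells as endosteal EC (AEC) and marrow EC (SEC), so a label need not give the vessel type of every cell. The table held 59 young and 59 old MSC-S, 26 and 26 mOPr, 44 and 29 OPr, 53 and 58 MSC-L, 84 and 82 AEC, and 70 and 71 SEC. These 661 cells comprised 354 mesenchymal cells of the first 4 kinds and 307 endothelial cells.

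Levels are given as CPM, the count of a gene scaled to all nuclear gene counts of the summed cells of a group, and a cell is said to carry a gene at 10 CPM or more. Total counts per cell ran from 58034 to 1503374 with a median of 425611, and the median was 525508 in mesenchymal and 348881 in endothelial cells. Shares of cells carry exact Clopper-Pearson 95% intervals, which cover the drawing of cells alone. The Poisson intervals of ratios treat each read as independent. Since the reads have no molecular identifiers, these cover neither the error of counting molecules in full nor the spread between cells. A share of 0 is given with the limit that 3 cells of the group would set. Levels of different Hox genes are compared only as CPM per kb of exon, while the highest gene of a marker list is named by CPM without regard to length.

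The sorted identities were checked against marker lists. All 10 mesenchymal markers reached 10 CPM in each of the 4 mesenchymal populations, with sums from 18415 CPM in OPr to 52723 CPM in MSC-L. All 10 endothelial markers did so in AEC and SEC, with sums of 9507 and 9767 CPM, against at most 111 CPM in a mesenchymal population. The 4 SEC markers summed to 12489 CPM in SEC and 681 CPM in AEC, and the 6 AEC markers to 2936 CPM in AEC and 686 CPM in SEC. The 5 MSC-S markers summed to 2240.3 CPM in MSC-S and 4.04 CPM in MSC-L, and the 4 MSC-L markers to 51189 CPM in MSC-L and 794 CPM in MSC-S. The 8 osteoprogenitor and chondrogenic markers summed to 29982 CPM in young OPr, of which Col2a1 gave 23589 CPM, and to 2409 CPM in old OPr. Old OPr went against their sort, since all 15 hematopoietic markers reached 10 CPM there and summed to 12274 CPM, while 2 of 15 did so in young OPr at a sum of 132 CPM. S100a9 was the highest of them in old OPr at 4041 CPM and Arhgdib in young OPr at 103 CPM, and none of the 15 was at 0 in old OPr against 1 in young OPr. The share of old OPr with a Hox gene is therefore given with and without the 8 cells that carried at least 7 of the 15 markers. Further exceptions were 16 SEC and AEC with mesenchymal markers, and old mOPr and old OPr with MSC-L markers in spite of a sort without LepR, and these are described apart.

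A Hox gene was found in nearly every kind of cell. Of the 39 genes, 35 were carried by some cell, and Hoxb1, Hoxb13, Hoxd1 and Hoxd12 by none of 661, which allows a share of up to 0.454% each. All 39 had at least 1 count somewhere. At least 1 Hox gene was carried by 85.6% (101 of 118) of MSC-S, 82.7% (43 of 52) of mOPr, 72.6% (53 of 73) of OPr, 91% (101 of 111) of MSC-L, 84.3% (140 of 166) of AEC and 95% (134 of 141) of SEC. With both ages pooled, marrow populations stood highest in both lineages, and OPr lowest. Young OPr, at 88.6%, lay above young MSC-S at 79.7%, while old OPr stood at 48.3%. Old MSC-S and old MSC-L were alike, at 91.5% and 91.4%. The number of different Hox genes carried by some cell lay between 25 and 30 in every population, but few genes were common: 8 reached 10% of the cells in MSC-S, 7 in mOPr, 9 in OPr, 13 in MSC-L, 6 in AEC and 13 in SEC. No Hox gene was carried by more than 47.2% of the cells of any sample, the value of Hoxa9 and Hoxa10 in young MSC-L.

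The clusters divided between the lineages. HoxA genes were carried by 67.2% (238 of 354, interval 62.1 to 72.1%) of mesenchymal and 59.9% (184 of 307, interval 54.2 to 65.5%) of endothelial cells, and these intervals overlap. HoxB genes were carried by 9.04% (32 of 354, interval 6.27 to 12.5%) of mesenchymal cells against 65.8% (202 of 307, interval 60.2 to 71.1%) of endothelial cells. HoxC genes showed the opposite, with 53.4% (189 of 354, interval 48 to 58.7%) against 8.47% (26 of 307, interval 5.61 to 12.2%). HoxD genes were carried by 20.1% (71 of 354, interval 16 to 24.6%) and 33.2% (102 of 307, interval 28 to 38.8%). Mesenchymal cells thus carried A and C clusters and endothelial cells A and B clusters, while the HoxD share lay below these and above that of the remaining cluster in both. The same held on the scale of CPM per kb, where HoxB genes made up 2.89% of the summed Hox level of mesenchymal cells and 40.5% of that of endothelial cells, and HoxC genes 30.8% and 3.42%. HoxA genes made up 55.3% and 46%. At the floor of 10 CPM the HoxB and HoxC shares kept apart in both ages of every population. The HoxB share of cells was at most 19.2% in the 8 mesenchymal samples and at least 51.2% in the 4 endothelial samples. For HoxC the mesenchymal samples lay at 30.8% or more and the endothelial samples at 14.1% or less. With cells thinned to equal depth and any count taken as carrying, the HoxC shares no longer kept apart. The HoxC share was then 34.3% in young SEC and 25.7% in old SEC, against 30.8% in young mOPr, the lowest mesenchymal sample. Over all cells it was 56.2% in mesenchymal and 18.4% in endothelial cells. The HoxB shares still kept apart, at 26.9% or less in mesenchymal and 58.5% or more in endothelial samples. At 10 CPM the HoxD share did not keep its place in every sample. It was 3.45% beside 6.90% for HoxB in old OPr, 11.5% beside 19.2% in old mOPr, and 15.1% for both in young MSC-L. Per kb, HoxD made up 34.6% in young mOPr, above HoxC at 26.5%, and 7.01% in old SEC, just below HoxC at 7.10%.

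Position within the clusters also differed between the lineages, though for SEC the share of cells depended on the floor. Genes of paralog groups 9 to 13, which act toward the tail and in the limbs, were carried by 66.1% of MSC-S, 59.6% of mOPr, 56.2% of OPr and 71.2% of MSC-L, against 20.5% of AEC and 40.4% of SEC. With 1 count taken as carrying, the share was 78% of MSC-S, 80.8% of mOPr, 76.7% of OPr and 87.4% of MSC-L, against 50% of AEC and 76.6% of SEC, so that by this floor SEC lay beside MSC-S and OPr, and AEC below. With the same floor in cells thinned to 100000 counts it was 67.8% of MSC-S, 65.4% of mOPr, 58.6% of OPr and 75.2% of MSC-L, against 28.5% of AEC and 54.3% of SEC. At 10 CPM genes of groups 4 to 8 were carried by 55.9%, 59.6%, 53.4% and 81.1% of the mesenchymal populations in the same order, and by 74.1% of AEC and 90.1% of SEC. Genes of groups 1 to 3, which act toward the head, were the least common of the 3 sets in every population but AEC, where groups 9 to 13 were. Their share ran from 10.2% of MSC-S to 36% of MSC-L, with 28.3% of AEC and 34.8% of SEC. This set is also the smallest, with 8 genes against 15 in groups 4 to 8 and 16 in groups 9 to 13. Its rank among the sets is therefore not a matter of position alone. As a share of the summed Hox CPM per kb, groups 9 to 13 gave 58.4% in MSC-S, 51.9% in mOPr, 45.7% in OPr and 41.9% in MSC-L, but 11.2% in AEC and 11.5% in SEC. Endothelial Hox expression thus lay in the middle of the clusters, and mesenchymal expression extended to groups 9 and 10 of HoxA and HoxC. The highest paralog group that a cell carried had a median of 10 in each of the 8 mesenchymal samples, and of 8 in the endothelial samples except old AEC, where it was 7. It lay in groups 9 to 13 in 76.8% of the 298 mesenchymal cells with a Hox gene and in 33.2% of 274 endothelial cells. Groups 11 to 13, which pattern the middle and end of the limb, were the highest group in 25.7% of MSC-S with a Hox gene, against 11.6% of mOPr, 11.3% of OPr and 8.91% of MSC-L. With cells thinned to 100000 counts and 1 count taken as carrying, the shares with groups 9 to 13 highest were 77.7% of mesenchymal and 42.4% of endothelial cells.

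**Figure D1:**
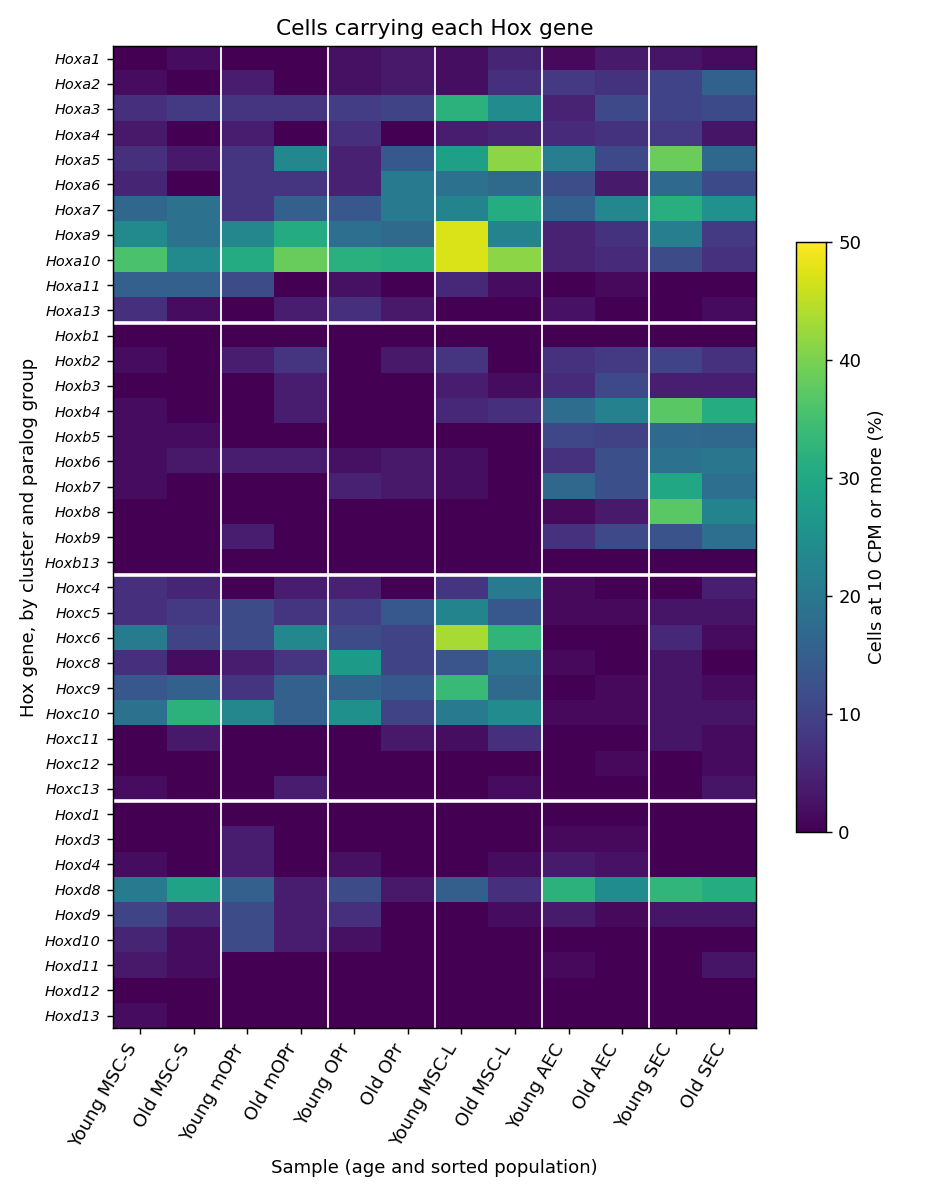
Share of cells at 10 CPM or more for each of the 39 Hox genes (vertical, ordered by cluster and paralog group) in each of the 12 samples (horizontal, an age of a sorted population), with color from 0 to 50%. Middle HoxB genes appear in the 4 endothelial samples, HoxC genes in the 8 mesenchymal samples, and Hoxd8 in both lineages.

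The gate of MSC-S selects multipotent mesenchymal cells of the bone surface. With both ages pooled, their most widely carried gene was Hoxa10, at 29.7% (35 of 118, interval 21.6 to 38.8%). Its level was 51.8 CPM in young and 10.9 CPM in old MSC-S. In old MSC-S alone another gene led, at 32.2% of cells. Hoxa10 and its paralog Hoxc10 pattern the upper segment of the limb and the lumbar spine. Hoxc10 followed in 25.4% (30 of 118, interval 17.9 to 34.3%), with 10.4 CPM in young and 17 CPM in old MSC-S. Hoxd8, a trunk gene, was carried by 24.6% (29 of 118, interval 17.1 to 33.4%), Hoxa9 by 21.2% (25 of 118) and Hoxa7 by 17.8% (21 of 118). Hoxa10 had the opposite course with age to Hoxc10 in these cells, and the intervals of the first 3 genes overlap. Hoxa11, which patterns the forearm and shin, was carried by 15.3% (18 of 118) of MSC-S, by 9 young and 9 old cells, and by no more than 5.77% of any other population. The genes of the limb ends were rare: Hoxa13 was carried by 5 and Hoxd13 by 1 of 118 MSC-S.

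Hoxa10 was also the most common Hox gene of both kinds of osteoprogenitor. In mOPr Hoxa10 was carried by 34.6% (18 of 52, interval 22 to 49.1%), with 27.1 CPM in young and 46 CPM in old mOPr, and in OPr by 31.5% (23 of 73, interval 21.1 to 43.4%), with 43.6 CPM in young and 71.1 CPM in old OPr. The next genes in mOPr were Hoxa9 at 26.9% (14 of 52), Hoxc10 at 19.2% (10 of 52), Hoxc6 at 17.3% (9 of 52) and Hoxa5 at 15.4% (8 of 52). In OPr they were Hoxc8 at 20.5% (15 of 73), Hoxc10 at 19.2% (14 of 73), Hoxa9 at 17.8% (13 of 73) and Hoxa7 at 16.4% (12 of 73). With at most 73 cells a population, the intervals do not resolve the order of these genes, the first place of Hoxa10 included. Hoxd10 stood out in young mOPr, at 21 CPM in 3 of 26 cells, where 1 cell held 41% of the counts, against 2.32 CPM in old mOPr.

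MSC-L of central marrow surround marrow vessels and make CXCL12. With both ages pooled, they carried Hox genes in more of their cells than the other mesenchymal populations. Among old cells the share was 91.4% in MSC-L and 91.5% in MSC-S. Hoxa10 was carried by 44.1% (49 of 111, interval 34.7 to 53.9%) of MSC-L, with 66.2 CPM in young and 57.3 CPM in old MSC-L. Hoxc6, a gene of the forelimb and chest level, was carried by 37.8% (42 of 111, interval 28.8 to 47.5%), with 18.8 CPM in young and 14.4 CPM in old MSC-L. Hoxa5, a gene of the neck and upper chest, was carried by 35.1% (39 of 111, interval 26.3 to 44.8%), with 12.1 CPM in young and 27 CPM in old MSC-L. All 3 stood at like levels in both ages, within a factor of 2 or a little more. Hoxa9 was carried by 34.2% (38 of 111) and Hoxa3 by 27.9% (31 of 111), the highest share of any gene of groups 1 to 3 in any population. Hoxa3 stood at 24 CPM in young and 23.1 CPM in old MSC-L, against 6.65 CPM in MSC-S and 8.63 CPM in SEC, though 27.1% of its exon bases are shared with other genes.

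Endothelial cells were led by a different set. In AEC the leading gene was Hoxd8, at 28.3% (47 of 166, interval 21.6 to 35.8%), with 29 CPM in young and 21.7 CPM in old AEC. Hoxb4 followed at 19.9% (33 of 166), Hoxa7 at 19.3% (32 of 166), Hoxa5 at 16.3% (27 of 166) and Hoxb7 at 14.5% (24 of 166). In SEC the leading gene was Hoxb4, at 34% (48 of 141, interval 26.3 to 42.5%), with 17.9 CPM in young and 12.6 CPM in old SEC. Hoxd8 followed at 31.9% (45 of 141), Hoxb8 at 29.8% (42 of 141), Hoxa7 at 28.4% (40 of 141) and Hoxa5 at 27.7% (39 of 141). Both endothelial populations therefore shared Hoxd8, Hoxb4, Hoxa7 and Hoxa5 among their first 5 genes. Hoxb8 differed between them, at 16.4 CPM in young and 14 CPM in old SEC against 0.861 CPM in young and 0.918 CPM in old AEC. SEC came from femurs and AEC from leg, arm and pelvic bones, so that cell type and bone cannot be told apart. At 10 CPM Hoxb8 was carried by none of the 354 mesenchymal cells, which allows a share of up to 0.847% at that floor. It was not absent there. At least 1 count was found in 8 of 136 cells of the authors' clusters M1 and M2, 5 of 94 of M3 to M5 and 4 of 124 of M6 to M16.

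On the scale of CPM per kb of exon, genes can be compared. With both ages pooled, Hoxa10 led each of the 4 mesenchymal populations. It stood at 9.19 in MSC-S, 11 in mOPr, 16.9 in OPr and 19 in MSC-L, against 1.67 in AEC and 1.60 in SEC. In old MSC-S alone Hoxc10 stood higher than Hoxa10, and in young mOPr alone Hoxd8 and Hoxd10 did. Hoxb7, a trunk gene, led both endothelial populations at 14.9 in AEC and 17.8 in SEC, and lay at 1.26 or less in the mesenchymal populations. Next in SEC were Hoxa7 at 15.7 CPM per kb and Hoxa5 at 14.8, while in AEC Hoxa5 stood at 10.9, Hoxa7 at 9.38 and Hoxd8 at 9.24. Short Hoxa6 ranked higher on this scale than by cells, at 15.2 in MSC-L and 11.1 in OPr against 0.652 in MSC-S. The summed Hox level per kb was 114 in MSC-L and 111 in SEC, both from marrow, against 52.1 in MSC-S, 79 in mOPr, 71.1 in OPr and 78 in AEC. Levels fell off sharply past group 10, where no gene but Hoxa11 in MSC-S, mOPr and MSC-L reached 1 CPM per kb in any population.

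**Figure D2:**
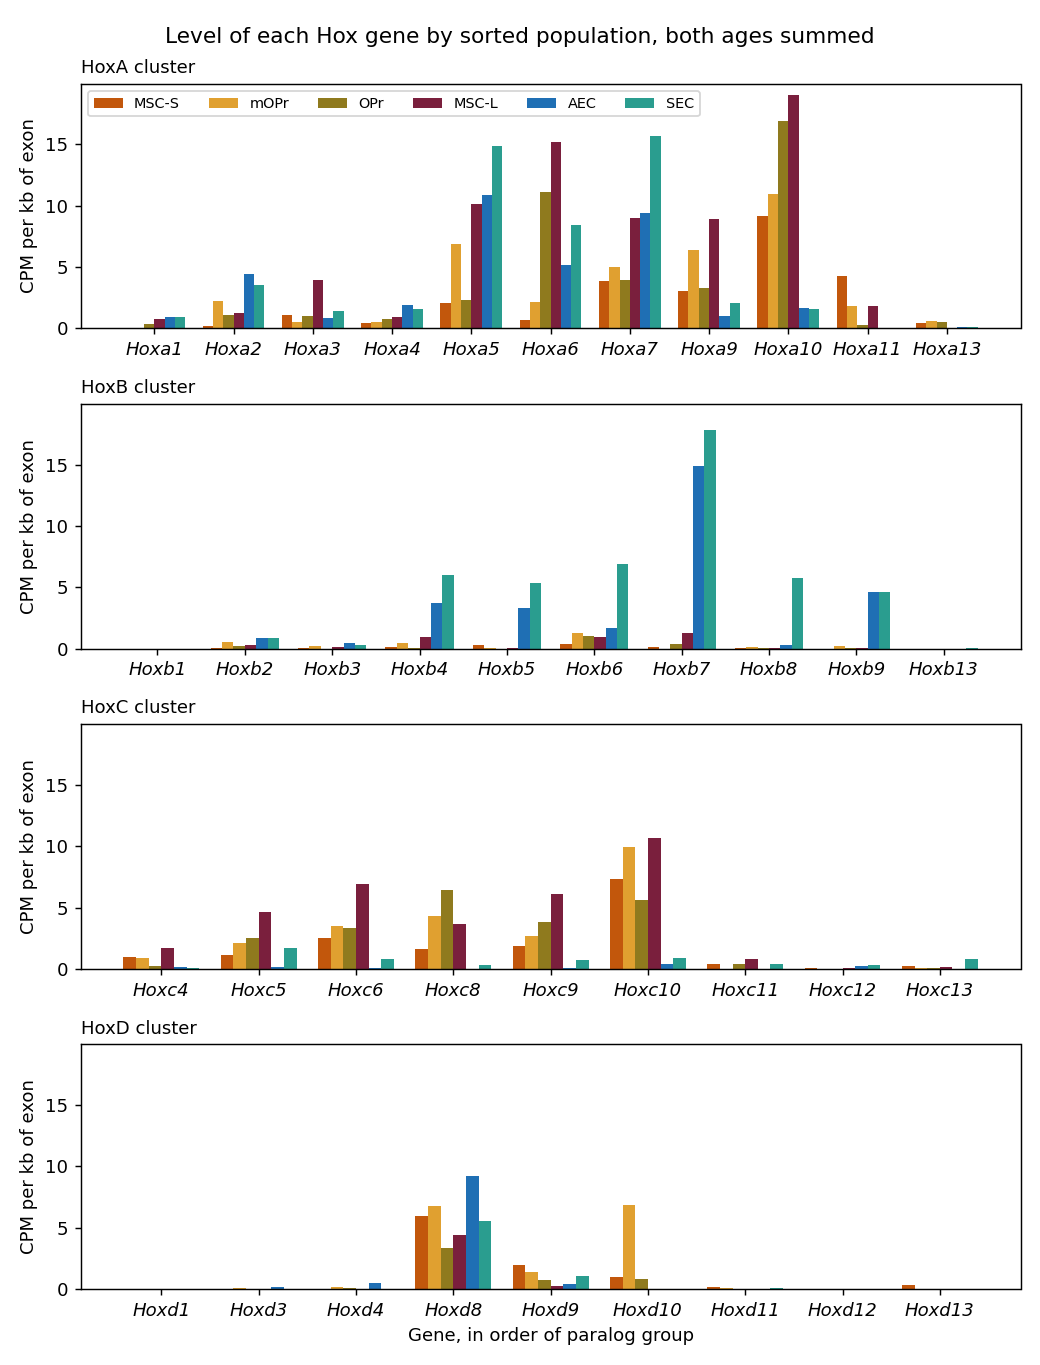
Level of each Hox gene as CPM per kb of exon (vertical) for the genes of each cluster in order of paralog group (horizontal), with 1 bar for each sorted population and both ages summed. Hoxa10 and Hoxc10 are tall in the mesenchymal colors, Hoxb7 in the endothelial colors, and Hoxa5 and Hoxa7 in both.

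Among endothelial cells, HoxC genes were more frequent in cells that also showed mesenchymal markers. Of the 307 endothelial cells, 16 carried at least 7 of the 10 mesenchymal markers, 3 sorted as AEC and 13 as SEC. In these 16 the mesenchymal markers summed to 29786 CPM, with all 10 at 10 CPM or more, none at 0 and Cxcl12 highest at 23190.3 CPM. In the other 291 they summed to 2428 CPM, with 5 of 10 at 10 CPM or more and Cxcl12 at 2257 CPM. A HoxC gene was carried by 81.2% (13 of 16, interval 54.4 to 96%) of the former and 4.47% (13 of 291, interval 2.40 to 7.52%) of the latter. A gene of groups 9 to 13 was carried by 81.2% and 26.8%. HoxB genes did not follow: 9 of 16 and 66.3% of the other 291 carried one. The author-defined cluster E1 held 14 endothelial cells, of which 85.7% carried a HoxC gene. Whether these were doublets or single cells of mixed identity was not tested.

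The widest comparison set endosteal MSC-S against endosteal AEC, cells of different lineage sorted from the same bones. It used the 2 ranges of library numbers that hold both, with 118 MSC-S and 119 AEC, and called a gene past 4-fold in CPM after adding 1 CPM to each side. Of the 39 genes, 26 had at least 100 counts in at least 5 cells, and of these 6 were higher and 6 lower in MSC-S, where 7.79% and 9.58% of all genes tested were. The median log2 ratio was -0.95 over the tested Hox genes and -0.29 over all 15735 genes. Levels per sample are given over all cells, and ratios over both ages of the shared ranges.

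The 6 genes higher in MSC-S were 4 HoxC genes and the limb genes Hoxa10 and Hoxa11. Hoxc10 stood at 10.4 CPM in young and 17 CPM in old MSC-S, against 0.602 and 1.00 CPM in young and old AEC, a log2 ratio of 2.93 in the shared ranges, or 14.4-fold in CPM (interval 11 to 19.3). Hoxc6 stood at 8.86 CPM in young and 3.80 CPM in old MSC-S, against 0.201 and 0.287 CPM in young and old AEC, a log2 ratio of 2.70. Both ages of MSC-S lay above both ages of AEC for these genes. Hoxc9, a gene of the lower chest level, stood at 3.94 CPM in young and 5.21 CPM in old MSC-S, against 0.0287 and 0.401 CPM in young and old AEC, a log2 ratio of 2.15. Hoxc8, another trunk gene, stood at 8.74 CPM in young and 0.817 CPM in old MSC-S, against 0.143 and 0.0573 CPM in young and old AEC, a log2 ratio of 2.30, but 1.23 without the highest cell of each group, since 1 cell held 67.7% of the MSC-S counts. For Hoxc8 the call therefore rested on 1 cell, while the other HoxC genes stayed past 4-fold without their highest cells. Hoxa11 stood at 12.9 CPM in young and 7.07 CPM in old MSC-S, against 0 and 0.0573 CPM in young and old AEC, a log2 ratio of 3.38, and its 2 counts in AEC put the ratio of CPM between 76.8 and 2304. Hoxa10 stood at 51.8 CPM in young and 10.9 CPM in old MSC-S, against 1.26 and 9.63 CPM in young and old AEC, a log2 ratio of 2.07. This difference belonged to the young cells, with 4.39 in young and -0.05 in old cells alone. Hoxa10 levels of the 2 old samples were thus alike, whereas those of the young samples were far apart.

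The 6 genes lower in MSC-S were 4 HoxB genes together with Hoxa2 and Hoxa5. Hoxb7 stood at 0.347 CPM in young and 0.0255 CPM in old MSC-S, against 29.6 and 16.5 CPM in young and old AEC, a log2 ratio of -4.54, or 149.9-fold lower in CPM (interval 87.4 to 282). Hoxb9, a gene of the lower ribs, had no count in 118 MSC-S and stood at 6.63 and 17.3 CPM in young and old AEC, so that it was at least 353-fold lower against a floor of 3 counts over the group. Hoxb4, a gene of the neck level, stood at 0.492 CPM in young and 0.0510 CPM in old MSC-S, against 7.03 and 12.1 CPM in young and old AEC, a log2 ratio of -3.20. No age of MSC-S reached any age of AEC for these 3 genes. Hoxb5, a gene of the shoulder level, stood at 1.56 CPM in young and 0.332 CPM in old MSC-S, against 6.02 and 12.4 CPM in young and old AEC, a log2 ratio of -2.54, with 1 cell holding 51% of the AEC counts and a ratio of -2.31 without it and its MSC-S counterpart. Hoxa5 stood at 6.71 CPM in young and 1.43 CPM in old MSC-S, against 31.2 and 9.63 CPM in young and old AEC, a log2 ratio of -2.31. Hoxa2, which patterns the branchial arches, stood at 0.579 CPM in young and 0.0766 CPM in old MSC-S, against 7.17 and 8.43 CPM in young and old AEC, a log2 ratio of -2.65. Between these sets lay 14 tested genes within 4-fold, among them Hoxd8 at 16.4 CPM in MSC-S and 28 CPM in AEC, Hoxa7 at 11 and 30.6 CPM, and Hoxa9 at 16.8 and 6.45 CPM. Hoxd8 was therefore common to both lineages of the bone surface, unlike the HoxB and HoxC genes.

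MSC-S and MSC-L are both mesenchymal, but MSC-S came from leg, arm and pelvic bones and MSC-L from femurs, so that cell type and bone cannot be told apart here. Of 21 Hox genes tested, 0 were higher and 2 lower past 4-fold in MSC-S, against 6.62% and 11.3% of all genes, so the number called was near the background. The median log2 ratio was -1.04 for the tested Hox genes and -0.38 for all genes. Hoxa6, a gene of the lower neck and chest, stood at 1.04 CPM in young and 0.153 CPM in old MSC-S, against 11.2 and 15.7 CPM in young and old MSC-L, a log2 ratio of -3.19. Hoxa5 stood at 6.71 CPM in young and 1.43 CPM in old MSC-S, against 12.1 and 27 CPM in young and old MSC-L, a log2 ratio of -2.02. Both are neighbors within HoxA, and both MSC-L samples lay above both MSC-S samples. Hoxd9 and Hoxa11, both limb genes, went the other way without passing 4-fold: Hoxd9 had a log2 ratio of 1.78, at 4.30 CPM in MSC-S and 0.544 CPM in MSC-L, and Hoxa11 one of 1.07, at 9.79 and 4.14 CPM. Hoxa10 stood at 30.0 CPM in MSC-S and 62.1 CPM in MSC-L, a log2 ratio of -1.02.

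Endothelial cells of bone surface and marrow were compared within library-number range 3, the only one with SEC, as 47 AEC against 141 SEC. Here too the marrow cells came from femurs alone, so that cell type and bone cannot be told apart. Of 18 Hox genes tested, 0 were higher and 3 lower past 4-fold in AEC, against 5.16% and 7.98% of all genes. The median log2 ratio was -1.38 for the tested Hox genes and -0.10 for all genes. Hoxb8 stood at 1.40 CPM in these AEC and 15.3 CPM in SEC, a log2 ratio of -2.76, and was carried by 1 and 42 cells. Hoxb9 stood at 1.25 and 11.9 CPM, a log2 ratio of -2.53, although over all ranges it stood at 11.9 CPM in AEC. Hoxa9 stood at 1.56 and 11.6 CPM, a log2 ratio of -2.30. Each of the 3 was higher in SEC of the shared range, and only for Hoxb8 did the AEC of all ranges, at 0.889 CPM, stay as low. Hoxd8 stood at like levels, at 13.6 and 15.2 CPM, a ratio of 0.894 with an interval from 0.751 to 1.06. Within this range the cells of clusters E3 and E4 sorted as AEC, compared with the cells of E7 sorted as SEC, gave 8 lower Hox genes. That comparison was added after the data had been seen. The share of all genes called in it is not given, so its count is not set against a background.

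The authors grouped the same cells into clusters by their expression (ICGS clusters), so the Hox values per cluster are a description. Among clusters of at least 10 cells, a HoxB gene was carried by 23.1% of the 13 cells of M4 and by 13.3% or less of every other mesenchymal cluster. In the endothelial clusters the share ran from 50% in E1 to 83.8% in E7, a cluster of SEC, of whose 105 cells 37 carried Hoxb8 and 37 Hoxb4. None of the 60 cells of E3, an AEC cluster, carried a HoxC gene, which allows up to 5%. HoxB and HoxC thus split the clusters as they split the sorted populations, E1 apart.

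M16, a cluster of 36 cells, had the highest share of cells with genes of groups 9 to 13. Each of its cells carried a Hox gene, 94.4% carried one of groups 9 to 13 and 61.1% a HoxD gene, the highest HoxD share of any cluster. Hoxc10 was carried by 18, Hoxa10 by 17, Hoxd8 by 16 and Hoxa11 by 13 of the 36 cells, so that M16 held 13 of the 26 mesenchymal cells with Hoxa11. M5 had the lowest share with a Hox gene, 53.8% (35 of 65, interval 41 to 66.3%), and it holds 8 cells with at least 7 hematopoietic markers and no Hox gene, without which the share was 61.4% (35 of 57). M4 had few genes of groups 9 to 13, in 23.1% (3 of 13), and 55.9 CPM of Hoxc8, of which 1 cell held 53.5%. The summed Hox level per kb was 160.3 in M2 and 107 in M1, clusters that hold MSC-L, and 52.7 in M16, 40.6 in M5 and 16.9 in M9. Breadth and level of Hox expression thus did not go together: M16 cells all carried a Hox gene at a summed level under that of M1 and M2.

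Single cells mostly carried a few Hox genes at a time. The median number per cell was 4 in MSC-L, 3 in SEC and 2 in each of the other 4 populations, and the highest number was 11, in a young SEC of cluster E1, in which 13 of 14 cells carried at least 7 mesenchymal markers. Of SEC 85.8% carried at least 2, as did 84.7% of MSC-L, 65.4% of mOPr, 61.9% of MSC-S, 58.9% of OPr and 52.4% of AEC. At least 5 were carried by 37.8% of MSC-L and 27% of SEC, against 11.9% or less elsewhere. Marrow cells of both lineages thus carried larger sets, although their median depth was below that of MSC-S and AEC. These marrow cells came from femurs alone, and the part of the bone in this was not tested. With cells thinned to equal depth, at least 2 genes with a count were found in 95.7% of SEC, 87.2% of MSC-L, 71.2% of MSC-S and 66.1% of AEC.

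The clusters were combined within cells along the same lines. A HoxA and a HoxC gene were carried together by 142 mesenchymal cells (40.1%) and 20 endothelial cells (6.51%). A HoxA and a HoxB gene were carried together by 131 endothelial cells (42.7%) and 23 mesenchymal cells (6.50%). HoxB with HoxC was rare in both, in 4.52% and 4.56%. The commonest pair of genes in mesenchymal cells was that of the neighbors Hoxa9 and Hoxa10, in 50 cells, which were 55.6% of the 90 with Hoxa9 and 40% of the 125 with Hoxa10. The paralogs Hoxa10 and Hoxc10 were paired in 41 cells, 32.8% of those with Hoxa10 and 51.9% of those with Hoxc10. In endothelial cells Hoxb4 was paired with Hoxa7 and with Hoxd8 in 26 cells each, of 81 with Hoxb4. Among SEC, 17 cells carried both Hoxb4 and Hoxb8, 35.4% of the 48 with Hoxb4 and 40.5% of the 42 with Hoxb8.

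In the embryo Pitx1 and Tbx4 mark the hindlimb and Tbx5 the forelimb. The labels give no bone, and the methods name a single bone, the femur, only for marrow cells, so mesenchymal cells were grouped by these genes. This grouping of the Hox genes was made after the data had been seen, apart from the comparison by HoxC. Pitx1 was carried by 67, Tbx4 by 18 and Tbx5 by 16 of 354 mesenchymal cells, and 1 cell carried Pitx1 with Tbx5 and 1 Tbx4 with Tbx5. Cells with Tbx5 and either of the others were left out of the groups, which hold 77 cells with Pitx1 or Tbx4, 14 with Tbx5 and 261 with none. Of the 111 MSC-L, which came from femurs, 20 carried Pitx1, 1 Tbx4 and 1 Tbx5, with no cell carrying 2 of them. Most of these hindlimb cells thus lie in the group with none of the 3 genes, and 1 lies in the group with Tbx5. The groups therefore do not separate cells by limb of origin. Levels of Pitx1 were 17.2 CPM in MSC-S, 12.7 in mOPr, 29 in OPr and 15.6 in MSC-L, and those of Tbx5 were 7.99, 3.51, 12.3 and 0.804 CPM. Tbx4 stood at 11.7 CPM in MSC-S and 0.284 CPM in MSC-L. The summed level of the 3 genes was 0.359 CPM in AEC and 2.18 CPM in SEC, so they were nearly confined to mesenchymal cells. Pitx1 was carried by 23.3% of mesenchymal cells with a HoxC gene (interval 17.5 to 30.0%) and 13.9% of those without (interval 9.05 to 20.2%), which overlap.

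Hoxc10, a hindlimb gene in the embryo, was carried by 28 of 77 (36.4%, interval 25.7 to 48.1%) cells with Pitx1 or Tbx4, by none of 14 with Tbx5, which allows up to 21.4%, and by 51 of 261 (19.5%, interval 14.9 to 24.9%) with none of the 3 genes. Hoxa13 was carried by 8 of 77 (10.4%, interval 4.59 to 19.4%), by none of 14 and by 2 of 261 (0.766%, interval 0.0929 to 2.74%). Hoxa11 was carried by 12 of 77 (15.6%, interval 8.32 to 25.6%), 2 of 14 and 12 of 261 (4.60%, interval 2.40 to 7.89%). Shares of all 39 genes were taken in these groups, and the genes named were chosen after their values had been seen. Hoxc5 was carried by 14 of 77, 1 of 14 and 27 of 261, Hoxc6 by 19 of 77, 2 of 14 and 55 of 261, Hoxc8 by 13 of 77, 1 of 14 and 26 of 261, and Hoxc9 by 9 of 77, 1 of 14 and 52 of 261. A gene of groups 9 to 13 was carried by 61 of 77 (79.2%, interval 68.5 to 87.6%), 8 of 14 and 159 of 261 (60.9%, interval 54.7 to 66.9%). Within MSC-S alone Hoxa11 was carried by 11 of 35 (31.4%, interval 16.9 to 49.3%) cells with Pitx1 or Tbx4 and 5 of 74 (6.76%, interval 2.23 to 15.1%) with none of the 3. There Hoxc10 was carried by 11 of 35 (31.4%, interval 16.9 to 49.3%) and 19 of 74 (25.7%, interval 16.2 to 37.2%), and Hoxa13 by 4 of 35 (11.4%, interval 3.20 to 26.7%) and 1 of 74 (1.35%, interval 0.0342 to 7.30%). The cells of a group come from both ages and from mice the labels do not tell apart, and outside the values for MSC-S from 4 populations, so the intervals cover the drawing of cells alone and differences between these groups were not tested. With only 14 cells, the group with Tbx5 allows no firm statement on any Hox gene.

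**Figure D3:**
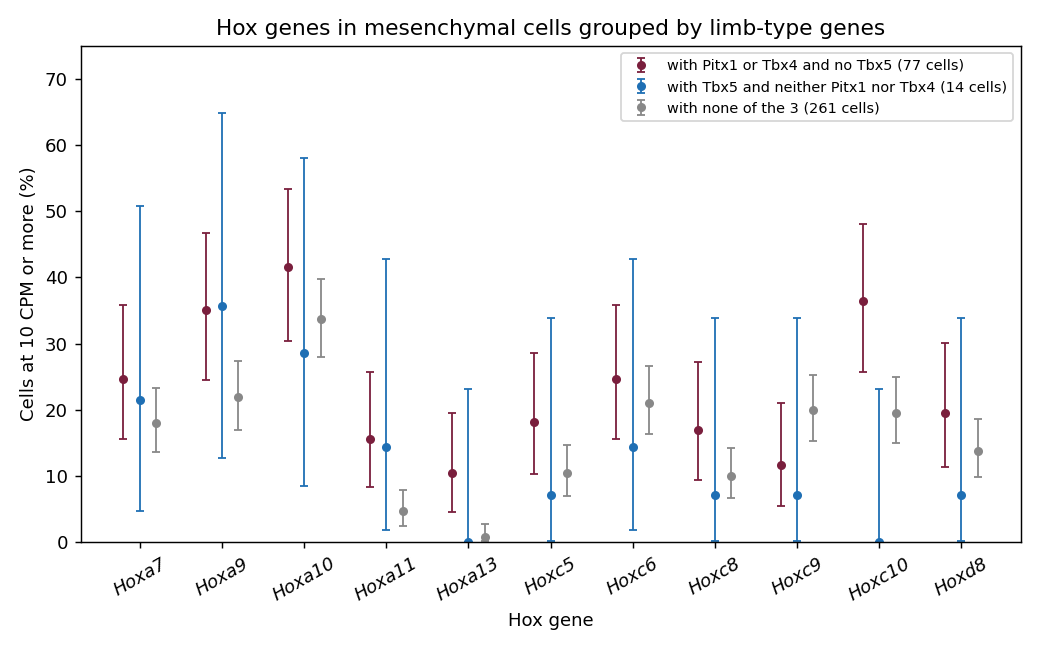
Share of mesenchymal cells at 10 CPM or more (vertical, percent) for 11 Hox genes (horizontal), in the 77 cells with Pitx1 or Tbx4, the 14 with Tbx5 and the 261 with none of these, with exact 95% intervals. The 11 genes are a choice from the 39, made after the data had been seen.

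Young and old samples lay close in the share of cells with any Hox gene in mOPr, MSC-L, AEC and SEC, and further apart in MSC-S and OPr. In MSC-S it was 79.7% (47 of 59, interval 67.2 to 89%) in young and 91.5% (54 of 59, interval 81.3 to 97.2%) in old cells, and these intervals overlap. It was 80.8% in young and 84.6% in old mOPr, 90.6% and 91.4% in MSC-L, 85.7% and 82.9% in AEC, and 95.7% and 94.4% in SEC. In OPr it was 88.6% (39 of 44, interval 75.4 to 96.2%) in young and 48.3% (14 of 29, interval 29.4 to 67.5%) in old cells. The drop in old OPr moved with blood markers. The 8 old OPr with at least 7 hematopoietic markers, in which all 15 reached 10 CPM and summed to 48527 CPM (S100a9 highest at 16118 CPM) and the 10 mesenchymal markers to 42.4 CPM, carried none of the 39 Hox genes, which allows up to 37.5%. Without them 66.7% (14 of 21, interval 43 to 85.4%) of old OPr carried a Hox gene, an interval that meets that of young OPr, and 3 of 15 hematopoietic markers reached 10 CPM there, at a sum of 151 CPM with Arhgdib highest at 109 CPM and 1 at 0. Old OPr of clusters M1 and M2, which also hold MSC-L, carried one in 90% (9 of 10), while old OPr of M3 to M5 did in 26.3% (5 of 19) and young OPr of M3 to M5 in 88.9% (32 of 36). The 19 include all 8 cells with blood markers, and without them, an exclusion added after the data were seen here and for M5, the share in old OPr of M3 to M5 was 45.5% (5 of 11, interval 16.7 to 76.6%). The Hox share of old OPr therefore changed with which of its cells were counted and with the floor. Hematopoietic markers also rose from 303 CPM (4 of 15 at 10 CPM or more, none at 0, Arhgdib highest at 116 CPM) in young SEC to 842 CPM (9 of 15, none at 0, Plek highest at 193 CPM) in old SEC, where the Hox share of cells stayed near that of young SEC.

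Old cells were compared with young cells gene by gene within each population, with the same filter and 4-fold limit. In MSC-S 15 Hox genes were tested, and 0 were higher and 2 lower in old cells, against 1.74% and 2.97% of all genes. In mOPr 11 were tested, with 3 higher and 2 lower against 10.3% and 9.13%. In OPr 12 were tested, with 1 higher and 0 lower against 10.9% and 8.95%. Most calls thus fell in mOPr, one of the populations with a high share of calls among all genes. In MSC-L 15 were tested, with 0 higher and 0 lower against 4.56% and 3.21%. In AEC 17 were tested, with 1 higher and 0 lower against 2.25% and 2.86%. In SEC 17 were tested, with 0 higher and 0 lower against 4.06% and 1.46%. Over the 6 populations 9 calls fell on 7 genes, and no gene was called in the same direction in more than 1 population, and counts this small lie near the background. The median log2 ratio of all genes was 0.11 in mOPr and 0.14 in OPr, and the medians of the tested Hox genes there were 0.76 and 0.28. The Hox medians were -0.66 in MSC-S, -0.05 in MSC-L, 0.36 in AEC and -0.37 in SEC.

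Hoxa10 changed in opposite directions in 2 populations. In MSC-S it stood at 51.8 CPM in young and 10.9 CPM in old cells, a log2 ratio of -2.15. The ratio was -1.56 among cells of range 1 and -2.41 among those of range 2. Once the top cell of both ages was left out, it was -2.26. Some clusters that hold MSC-S differed in age. M9 held 0 young and 10 old cells, and M15 17 young and 0 old, over all mesenchymal sorts. The part of this in the change of Hoxa10 was not tested. In AEC Hoxa10 stood at 1.26 CPM in young and 9.63 CPM in old cells, a log2 ratio of 2.23. The ratio was 2.72, 2.04 and 1.47 in the 3 ranges and 1.98 without the highest cells, just under 4-fold. Of 10 mesenchymal markers 2 were higher and 0 lower in old AEC, against 2.25% and 2.86% of all genes. Of 4 SEC markers 0 were higher and 1 lower. The part of these markers in the change of Hoxa10 was not tested. The shares of cells with Hoxa10 moved less than its levels, from 21 to 14 of 59 MSC-S and from 4 of 84 to 5 of 82 AEC. Hoxc8 also fell in MSC-S, where it stood at 8.74 CPM in young and 0.817 CPM in old cells, a log2 ratio of -2.42, but with 1.19 in range 1 and -3.76 in range 2, and -1.52 without the highest cells. Its fall thus rested on range 2 and largely on 1 cell with 74.8% of the young counts. Whether the change of Hoxa10 differed between MSC-S and AEC was not tested.

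In mOPr, with 26 cells of each age, 5 genes were called. Hoxa5 stood at 2.40 CPM in young and 25.1 CPM in old cells, a log2 ratio of 2.94, with 3.17 and 2.92 in the 2 ranges and 3.22 without the highest cells. Hoxd8 stood at 30.9 CPM in young and 4.08 CPM in old cells, a log2 ratio of -2.65, with -0.46 and -4.76 in the 2 ranges and -3.85 without the highest cells. Both changes stayed past 4-fold without those cells, although that of Hoxd8 came from range 2. Hoxc9 stood at 1.92 CPM in young and 11.9 CPM in old cells, a log2 ratio of 2.14, and at 1.68 without the highest cells, but at -1.35 in the cells of M3 to M5 whatever their sort. Hoxc8 stood at 4.25 CPM in young and 21.5 CPM in old cells, a log2 ratio of 2.10, with -1.59 and 4.50 in the ranges and 0.52 without the highest cells, and at -1.91 in cells of M3 to M5. In M3 to M5 the number of higher Hox genes was 0 in place of 3. The share of all genes called in M3 to M5 is not given, so this count is not set against a background. Hoxa2 stood at 6.92 CPM in young and 0.400 CPM in old cells, a log2 ratio of -2.50, and 99% of the young counts came from 1 cell, without which the ratio was 0.13. The values of Hoxc8 and Hoxa2 were therefore largely those of single cells. MSC-L markers moved with age in mOPr too: all 4 reached 10 CPM in both ages, and they summed to 763 CPM in young and 20622 CPM in old mOPr, with Cxcl12 highest at 552 and 18595 CPM. Of old mOPr 14 of 26 fell into clusters M1 and M2, and of young mOPr 2 of 26, and the part of this shift in the Hox values was not tested.

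In OPr the 1 called gene was Hoxa6, at 2.97 CPM in young and 19 CPM in old cells, a log2 ratio of 2.34, with 2.64 and 1.92 in the ranges and 2.59 without the highest cells. Without cells of blood markers or of the other stromal lineage it was 2.72, and over cells of M3 to M5 alone 1.27. Hoxa6 is a gene that MSC-L carried at 11.2 and 15.7 CPM, and 10 of the 29 old OPr against 3 of the 44 young OPr fell into M1 and M2. The 4 MSC-L markers summed to 5223 CPM in young and 22019 CPM in old OPr, and their part in the change of Hoxa6 was not tested. Of all 9 calls, 6 had the same direction in every range, and 4 stayed past 4-fold when the top cell of both ages was left out. MSC-L and SEC had no call. In MSC-L the tested genes lay between -1.83 for Hoxc9 and 1.36 for Hoxc8, and in SEC between -1.65 for Hoxa5 and 0.26 for Hoxa2. Hox levels of the marrow populations therefore stayed within 4-fold between the ages for every gene tested when all cells were counted, and Hoxa5 in SEC passed it, at -2.12, when the top cells were left out.

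**Figure D4:**
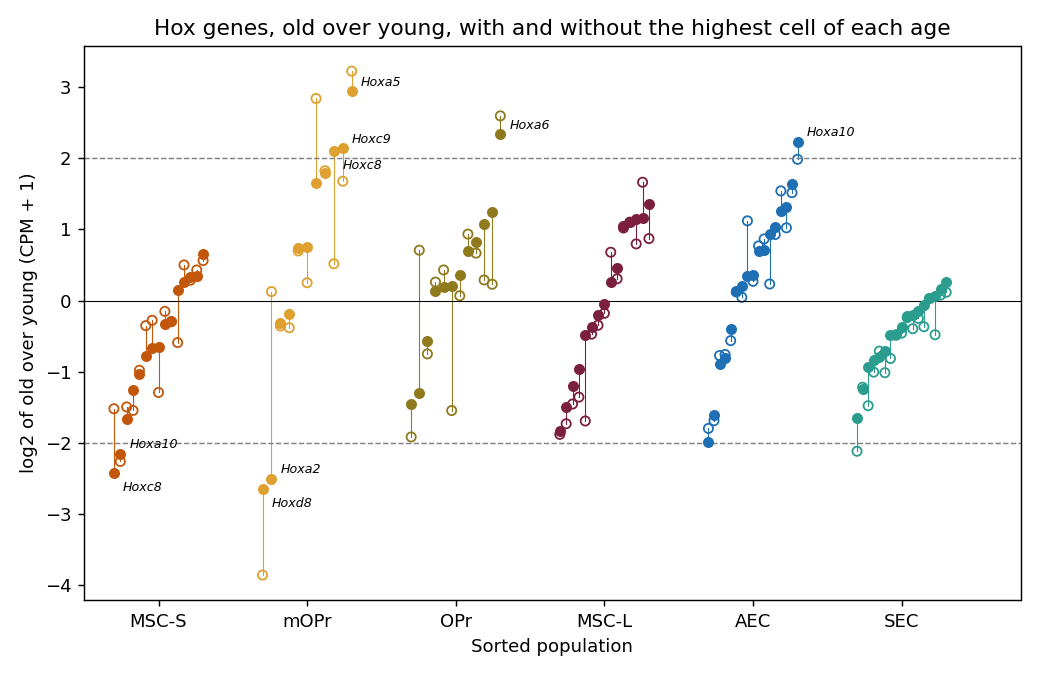
Log2 ratio of old over young CPM, after adding 1 CPM (vertical), for each tested Hox gene in each sorted population (horizontal), as filled points for all cells and open points with the top cell of both ages left out, with dashed lines at 4-fold. The 9 named points lie past the lines, and the long lines that join the points of Hoxa2 and Hoxc8 in mOPr show values that came largely from 1 cell.

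Hox proteins bind DNA together with cofactors, of which Meis1, Meis2 and Pknox1 alone are given here. Meis1 stood at 34.6 CPM in young and 44.5 CPM in old MSC-S, 44.5 CPM in MSC-L, 0.186 CPM in AEC and 10.3 CPM in SEC. Meis2 stood at 14.1 CPM in MSC-S, 67.2 in MSC-L, 1.81 in AEC and 35.3 in SEC. Pknox1 stood at 42.2 CPM in AEC and 25.5 CPM in MSC-S. These genes do not stand for the cofactors as a whole.

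Limb and skeletal patterning genes formed a list of 20. Between MSC-S and AEC 6 of 17 tested were higher and 2 lower, and 3 of 3 limb-type genes were higher, against 7.79% and 9.58% of all genes. Between MSC-S and MSC-L 1 of 18 patterning genes were higher and 4 lower, and 2 of 3 limb-type genes were higher, against 6.62% and 11.3%. Between AEC and SEC 2 of 11 patterning genes were higher and 0 lower, against 5.16% and 7.98%, and no limb-type gene was tested. Prrx1, a patterning gene, stood at 214 CPM in MSC-S, 172 in mOPr, 56.8 in OPr, 163 in MSC-L, 4.26 in AEC and 10.4 in SEC. Of 8 genes that sense, make or degrade retinoic acid, a regulator of Hox genes in the embryo, 3 were higher and 0 lower of 7 tested between MSC-S and AEC, 2 and 1 of 7 between MSC-S and MSC-L, and 2 and 1 of 7 between AEC and SEC. Aldh1a2, which makes retinoic acid, stood at 139.9 CPM in MSC-L and 53.6 CPM in SEC, against 13.8 in MSC-S and 0.0717 in AEC, and no link of these genes to Hox levels was tested. Of 18 Trithorax, Polycomb and related genes, 0 of 18 passed 4-fold between MSC-S and AEC and 0 of 18 between AEC and SEC, and 1 was higher and 1 lower of 18 between MSC-S and MSC-L. Kmt2a, a Trithorax gene, stood at 115 CPM in MSC-S and 201 CPM in AEC, and Ezh1, a Polycomb gene, at 69.1 and 100.3 CPM. These counts rest on few genes, and no contrast with the Hox genes was tested.

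Genes that flank the clusters formed a list of 9. Between MSC-S and AEC 5 were tested with 0 higher and 0 lower, between MSC-S and MSC-L 5 with 0 higher and 0 lower, and between AEC and SEC 6 with 0 higher and 1 lower. At the shares of all genes called (7.79% and 9.58% between MSC-S and AEC) counts of so few genes cannot be told from the background. Calcoco1, beside HoxC, stood at 63.2 CPM in MSC-S and 68.2 CPM in AEC, and Skap2, beside HoxA, at 35.7 and 95 CPM. Skap1, beside HoxB, stayed at 0.544 CPM or less in every population, and Evx1, the homeobox gene beyond Hoxa13, at 0.0938 CPM or less. Reads were counted without strand, and exons of 16 of the 39 Hox genes share bases with another gene, and what this did to their counts was not tested. The share passes 25% of the exon bases for 6 genes: Hoxd3 (62.8%), Hoxb3 (52.9%), Hoxd4 (52.3%), Hoxa11 (35%, with Hoxa11os), Hoxb2 (27.3%) and Hoxa3 (27.1%). Hoxa5, Hoxa6, Hoxa10, Hoxb4, Hoxb7, Hoxb8, Hoxb9, Hoxc6, Hoxc8, Hoxc9 and Hoxd8 share none.

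Of 12 noncoding RNAs of the clusters, 10 were in the table, and they were low. Their sum lay between 14 and 24.8 CPM in the 6 populations, and 1 of 6 tested was higher and 0 lower between MSC-S and AEC (all genes 7.79% and 9.58%), with 0 of 5 past 4-fold between MSC-S and MSC-L and 0 of 3 between AEC and SEC. Hoxa11os, which is read from the other strand of Hoxa11, stood at 10.6 CPM in young and 4.36 CPM in old MSC-S and at 0.186 CPM in AEC. It was carried by 24 cells and Hoxa11 by 27, with 5 cells carrying both, so most cells with Hoxa11 carried it without the antisense gene. Hoxd3os1 was carried by 62 cells and Hoxd3 by 3, with 0 shared, and Hoxb3os by 20 and Hoxb3 by 24, with 0 shared. Hoxaas3 was carried by 57 cells, 16 of them with Hoxa7. Hotair, from the HoxC cluster, was carried by 3 cells, and Hottip, from the end of HoxA, stood at 0.0287 CPM or less everywhere.

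Promoters are printed here of the most widely carried gene of each population, with both ages pooled. These were Hoxa10 in each mesenchymal population, Hoxd8 in AEC and Hoxb4 in SEC. The promoter of Hoxb8, which differed most between AEC and SEC, is printed too. Promoter sequences, from 250 bases before to 50 bases after a gene's start, come from RefSeq on GRCm38.p6, where 24 promoters of 22 of the 39 Hox genes were found. CG pairs, at which mammalian DNA is methylated, numbered 4 to 45 in the Hox promoters with a median of 14.5, against a median of 7 over all 32851 promoters. Hoxa10 has 2 starts in that table, numbered here by coordinate, at chr6:52234890-52235189 (- strand) with 21 CG pairs and at chr6:52240805-52241104 (- strand) with 12. Since the gene is read from the - strand, the second of these lies upstream of the first. The Hoxd8 promoter at chr2:74704365-74704664 (+ strand) has 6 CG pairs. The Hoxb4 promoter at chr11:96318017-96318316 (+ strand) has 14 CG pairs and the Hoxb8 promoter at chr11:96281655-96281954 (+ strand) has 13. Capitals mark the CG pairs.
Hoxa10 first start: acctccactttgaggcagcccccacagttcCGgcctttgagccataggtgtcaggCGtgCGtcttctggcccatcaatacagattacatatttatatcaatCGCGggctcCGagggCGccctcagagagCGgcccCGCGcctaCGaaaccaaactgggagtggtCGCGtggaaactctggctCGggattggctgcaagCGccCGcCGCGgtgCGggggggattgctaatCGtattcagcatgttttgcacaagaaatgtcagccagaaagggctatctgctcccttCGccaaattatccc
Hoxa10 second start: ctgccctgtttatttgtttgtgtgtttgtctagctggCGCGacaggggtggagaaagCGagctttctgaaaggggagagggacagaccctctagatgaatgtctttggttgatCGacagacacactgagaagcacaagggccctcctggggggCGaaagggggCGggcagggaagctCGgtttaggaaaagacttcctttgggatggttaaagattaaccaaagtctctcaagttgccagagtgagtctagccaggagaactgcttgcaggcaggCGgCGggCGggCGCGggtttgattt
Hoxd8: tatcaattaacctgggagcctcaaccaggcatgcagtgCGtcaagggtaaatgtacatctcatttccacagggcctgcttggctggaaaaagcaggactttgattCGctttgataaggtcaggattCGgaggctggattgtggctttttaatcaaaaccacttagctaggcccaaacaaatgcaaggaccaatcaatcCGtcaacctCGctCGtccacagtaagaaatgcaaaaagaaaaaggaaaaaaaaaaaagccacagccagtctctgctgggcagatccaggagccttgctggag
Hoxb4: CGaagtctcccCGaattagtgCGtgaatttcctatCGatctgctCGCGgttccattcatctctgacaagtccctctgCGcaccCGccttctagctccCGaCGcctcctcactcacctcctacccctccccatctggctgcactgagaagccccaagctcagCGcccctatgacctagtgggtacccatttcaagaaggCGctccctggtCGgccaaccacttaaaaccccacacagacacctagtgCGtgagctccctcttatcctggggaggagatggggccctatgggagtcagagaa
Hoxb8: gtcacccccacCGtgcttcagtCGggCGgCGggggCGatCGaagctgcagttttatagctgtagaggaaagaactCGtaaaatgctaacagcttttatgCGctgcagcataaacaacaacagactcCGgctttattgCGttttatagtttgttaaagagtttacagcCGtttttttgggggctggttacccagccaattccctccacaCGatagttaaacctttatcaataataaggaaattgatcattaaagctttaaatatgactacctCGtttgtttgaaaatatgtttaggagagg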

How the data were processed

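Single stromal cells of 6 sorted populations at 2 ages were measured by RNA sequencing, and the deposited table holds the gene counts of 661 cells. The authors aligned the reads with GSNAP 2015-09-29 to GRCm38.p4 and counted them per Ensembl 81 gene with HTSeq without regard to strand, so the deposited values are counts of reads and not of molecules. Of 46078 entries, 270 that repeat a symbol were summed, which left 45771 nuclear genes and 37 mitochondrial genes, and CPM were taken over the nuclear genes. All columns matched a label (0 unmapped). Hox genes were found by symbol, and exon lengths and overlaps come from GENCODE M21 on GRCm38.

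Levels are CPM of counts summed over the cells of a group, with a pseudocount of 1 CPM in log2 ratios. Tested genes had 100 counts or more, spread over 5 cells or more of both groups together, and were called at 4-fold or more. With 1 sample for each age of a population, no test was possible and ratios are described. Intervals are 95% Clopper-Pearson for shares and Poisson for ratios. A share of 0 is bounded by 3 cells over the group and a level of 0 by 3 counts. Populations were compared within library-number ranges that hold both, of 3 ranges in all. The 5 Hox genes carried by most cells of each population, every Hox gene past 4-fold in a comparison, and genes of the lists were named, and further genes were chosen after their values were seen. The lists hold limb-type, patterning, noncoding, flanking, chromatin, retinoic acid and marker genes, and members and lists were chosen with earlier results of these data known. Alternatives were floors of 1 count and 50 CPM, thinning to 100000 counts (which left out 7 cells), 2-fold, mean CPM, median-of-ratios size factors, no filter, each age or range alone, ICGS identity, and leaving out cells with at least 7 markers of another lineage or the highest cell. Cofactor genes are given singly, and the list as a whole is not reported. Doublets were not called. The calculations were tested on simulated data, and ran under Python 3.11.15 with scipy 1.17.1 for intervals, pandas 2.3.3 for tables, numpy 2.4.6 for arrays and matplotlib 3.10.9 for figures.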

Additional observations from a re-analysis of the deposited data

Results flagged for a closer look

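Hoxa10 moved in opposite directions with age in 2 sorted populations, with a log2 ratio of old over young of 2.23 in AEC and -2.15 in MSC-S. Hoxc8 did so too, with 2.10 in mOPr and -2.42 in MSC-S. Without the cell of each group with the most counts the values of Hoxa10 were 1.98 in AEC and -2.26 in MSC-S, and those of Hoxc8 0.52 in mOPr and -1.52 in MSC-S, so that only Hoxa10 in MSC-S stayed past 4-fold. Each value rests on 1 sample of each age, and the difference between the populations was not tested for either gene. The values of Hoxc8 in both populations changed sign between library-number ranges, and those of Hoxa10 kept their sign in each range.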

How the results depend on the processing

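Each result was recomputed with 1 choice changed at a time. Of 140 alternative values of shares, 92 stayed within the 95% interval of the share reported and 48 moved out of it. Of 146 alternative counts of Hox genes past the fold, 91 stayed within 1.5 times the count reported and 55 did not. Shares of all genes called are given for the 4-fold comparisons of the sorted populations alone. Counts under the alternatives, those at 2-fold and of E3 and E4 against E7 among them, are therefore not set against a background. Of 196 alternative log2 ratios of named genes, 45 stayed within their counting interval, 145 moved and kept their sign, and 6 changed sign. Of the moved shares, those with any Hox gene and with groups 9 to 13 follow, and the others are not listed. The moved counts and all ratios that changed sign follow too. Unless a choice itself raises or lowers a value, as the floors and the fold do, the cause was not tested. With 1 count taken as carrying a gene, the share with any Hox gene was 95.8% in MSC-S, 87.7% in OPr, 98.2% in MSC-L, 97.6% in AEC and 100% in SEC and the share with groups 9 to 13 was 78% in MSC-S, 80.8% in mOPr, 76.7% in OPr, 87.4% in MSC-L, 50% in AEC and 76.6% in SEC. With 50 CPM required, the share with any Hox gene was 58.5% in MSC-S, 61.5% in mOPr, 43.8% in OPr, 75.7% in MSC-L, 54.2% in AEC and 75.9% in SEC and the share with groups 9 to 13 was 35.6% in MSC-S, 23.3% in OPr, 55.9% in MSC-L, 10.8% in AEC and 19.1% in SEC. In cells thinned to 100000 counts, the share with any Hox gene was 92.1% in AEC and 98.6% in SEC and the share with groups 9 to 13 was 28.5% in AEC and 54.3% in SEC. In young cells alone, the share with any Hox gene was 88.6% in OPr and the share with groups 9 to 13 was 70.5% in OPr. There, too, the number of higher Hox genes was 1 in MSC-S over MSC-L and the number of lower Hox genes was 5 in AEC over SEC. In old cells alone, the share with any Hox gene was 91.5% in MSC-S and 48.3% in OPr and the share with groups 9 to 13 was 34.5% in OPr. There, too, the number of lower Hox genes was 4 in MSC-S over MSC-L and 5 in AEC over SEC and the log2 ratio changed sign to -0.05 for Hoxa10 in MSC-S over AEC. In library-number range 1, the share with any Hox gene was 97.5% in MSC-L and the share with groups 9 to 13 was 48.7% in MSC-S, 69.6% in OPr and 30% in AEC. There, too, the number of higher Hox genes was 3 in MSC-S over AEC, 1 in MSC-S over MSC-L, 4 in old over young OPr and 1 in old over young MSC-L and the number of lower Hox genes was 3 in MSC-S over AEC, 1 in MSC-S over MSC-L, 1 in old over young MSC-S, 0 in old over young mOPr, 1 in old over young OPr, 2 in old over young MSC-L and 2 in old over young AEC. There, too, the log2 ratio changed sign to 1.19 for Hoxc8 in old over young MSC-S and -1.59 for Hoxc8 in old over young mOPr. In library-number range 2, the share with groups 9 to 13 was 74.7% in MSC-S and the number of higher Hox genes was 1 in MSC-S over MSC-L, 0 in old over young OPr, 1 in old over young MSC-L and 3 in old over young AEC. There, too, the number of lower Hox genes was 4 in MSC-S over MSC-L, 1 in old over young OPr, 1 in old over young MSC-L and 1 in old over young AEC. In library-number range 3, the share with groups 9 to 13 was 12.8% in AEC and the number of higher Hox genes was 0 in old over young AEC. There, too, the number of lower Hox genes was 1 in old over young AEC. With the authors' cluster groups in place of the sort, the share with any Hox gene was 64.9% in mOPr and the share with groups 9 to 13 was 42.6% in mOPr and 42.6% in OPr. There, too, the number of higher Hox genes was 0 in old over young mOPr, 0 in old over young OPr and 0 in old over young AEC and the number of lower Hox genes was 1 in old over young mOPr, 1 in old over young OPr, 1 in old over young AEC and 1 in old over young SEC. There, too, the log2 ratio changed sign to -1.91 for Hoxc8 in old over young mOPr and -1.35 for Hoxc9 in old over young mOPr. At 2-fold, the number of higher Hox genes was 11 in MSC-S over AEC, 3 in MSC-S over MSC-L, 5 in old over young mOPr, 3 in old over young OPr, 5 in old over young MSC-L and 5 in old over young AEC and the number of lower Hox genes was 13 in MSC-S over AEC, 12 in MSC-S over MSC-L, 11 in AEC over SEC, 5 in old over young MSC-S, 2 in old over young OPr, 3 in old over young MSC-L, 2 in old over young AEC and 2 in old over young SEC. With the mean of each cell's CPM, the number of higher Hox genes was 0 in old over young AEC and the number of lower Hox genes was 1 in old over young MSC-S and 1 in old over young mOPr. With median-of-ratios size factors, the number of higher Hox genes was 1 in MSC-S over MSC-L and the number of lower Hox genes was 1 in MSC-S over MSC-L. Without the filter on low genes, the number of lower Hox genes was 4 in old over young mOPr and 2 in old over young MSC-L. Without cells of blood markers or of the other stromal lineage, the number of lower Hox genes was 1 in old over young AEC. With cells of E3 and E4 against those of E7, an alternative added after seeing the data, the number of lower Hox genes was 8 in AEC over SEC. Without the highest cell of each group, the log2 ratio changed sign to 0.13 for Hoxa2 in old over young mOPr. The share of cells with groups 9 to 13 ran from 35.6 to 78% in MSC-S over all alternatives, and that of AEC from 10.8 to 50%. SEC lie in range 3 alone and gave no value by range, and M3 to M5 stood for both OPr and mOPr. Depth sets the floor: 1 count in the shallowest cell is above 10 CPM, so a Hox transcript at a low level can go uncounted and a cell without a Hox gene need not lack it.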
